A study of Mus musculus with 6 samples.

Results

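The Dlg and Dlgap genes encode the scaffold proteins that lie under the membrane of excitatory synapses. The TERT CUT&Tag regions nearest to these genes were described across primary neurons given a telomerase inhibitor or its vehicle. The members were chosen by name: Dlg1, Dlg2, Dlg3, Dlg4, Dlgap1, Dlgap2, Dlgap3 and Dlgap4, 8 of 21883 protein-coding genes. They named 77 of the 41527 regions on chromosomes 1 to 19, X and Y. The data are 3 lists of CUT&Tag regions, in which an antibody to TERT, the catalytic protein of telomerase, directed a transposase to the chromatin it bound. Neurons were grown from the cortex and hippocampus of C57BL/6 embryos of day 15 to 18. In 3 samples they received dimethyl sulfoxide, the vehicle (0 µM), and in 3 samples 2 µM BIBR1532, a small-molecule telomerase inhibitor, both for 24 h per the treatment protocol. The treatment field of the vehicle samples reads untreated instead. The labels do not say whether the samples of a group came from separate litters or cultures.

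The libraries of each condition were combined before regions were listed, so each condition is 1 pooled measurement. The common list holds regions shared by both pools (6812), the BIBR1532 list those higher in the BIBR1532 pool (16153), and the vehicle list those higher in the vehicle pool (18562). Regions of the last 2 lists are called condition-specific here. Which list belongs to which condition was read from the order of the conditions in the names of the lists, and the direction is therefore likely, not stated. No replicate values, sample depths or control libraries stand behind a region here, so no difference below could be tested across samples, and binomial intervals cover counting error only. Regions do not measure transcription, and the neuronal identity of the cultures could not be checked from them.

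As background, the Dlg proteins are membrane-associated guanylate kinase homologues. Their PDZ domains hold the tails of glutamate receptors, potassium channels and adhesion molecules, and their guanylate kinase-like domain binds the Dlgap proteins. The Dlgap proteins in turn bind Shank, which joins the complex to Homer and the actin cytoskeleton. In forebrain neurons PSD-95, the product of Dlg4, is the most widely used marker of the excitatory postsynapse.

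Regions of these genes were spread over both condition-specific lists. The common list, the smallest of the 3, held 5 of their 77 regions and 6812 of all 41527. Dlg2 had the most, with 15 BIBR1532, 16 vehicle and 0 common regions. Dlgap1 followed with 10, 10 and 1. The other 6 genes had 21 condition-specific regions between them, 8 BIBR1532 and 13 vehicle. Dlg4 was named by 4 vehicle and 2 common regions and by 0 BIBR1532 regions, whereas Dlgap3 had 3 BIBR1532 and 1 vehicle region.

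**Figure D1:**
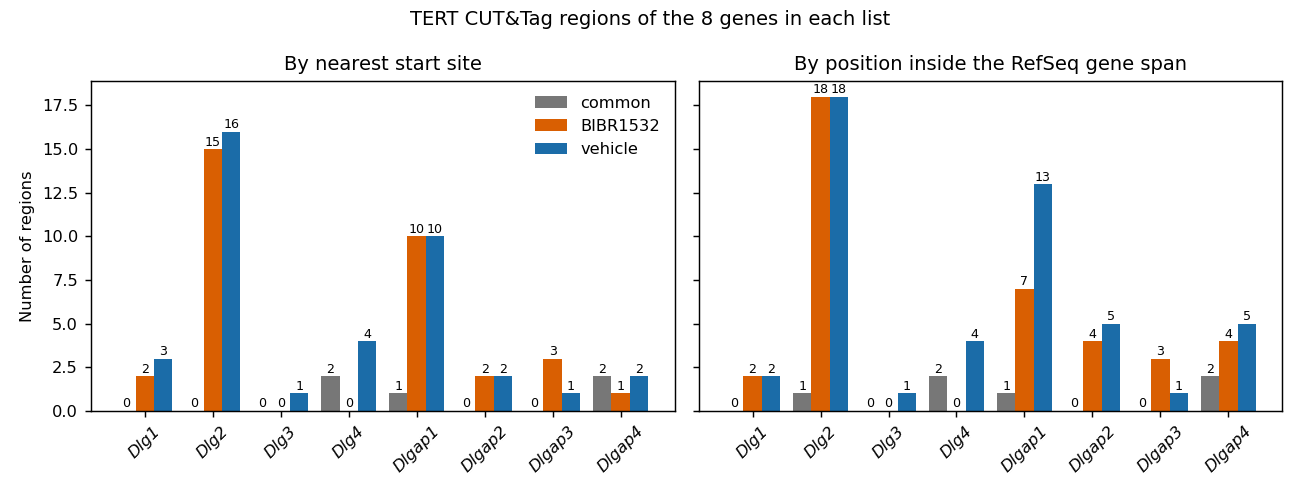
Number of TERT CUT&Tag regions (y axis) of each gene (x axis) in the common, BIBR1532 and vehicle lists, assigned by nearest start site (left) or by the region centre lying inside the RefSeq span (right). Each bar is a count from 1 pooled list and has no error bar. Dlg2 and Dlgap1 hold most regions, and Dlgap1 moves from 10 and 10 to 7 BIBR1532 and 13 vehicle regions.

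Summed over the 8 genes, 33 of 72 condition-specific regions (45.8%, exact 95% interval 34.0 to 58.0) were BIBR1532 regions. The share over all 34715 condition-specific regions was 46.5%, inside that interval. Were the conditions the other way round, the shares would be 54.2% and 53.5%. For the 4 Dlg genes it was 41.5% (17 of 41, interval 26.3 to 57.9) and for the 4 Dlgap genes 51.6% (16 of 31, interval 33.1 to 69.8). These intervals overlap widely, and the families were not tested against each other. The intervals count regions as independent, although Dlg2 alone gave 31 of the 41 and Dlgap1 20 of the 31. Within 10 kb of a start site it was 33.3% (6 of 18, interval 13.3 to 59.0) for the 8 genes, 49.3% over all regions, inside that interval, and 55.7% (34 of 61) for the partner genes described further on.

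All 8 genes were named by at least 1 vehicle region and 6 by at least 1 BIBR1532 region, against 37.4% and 34.5% of protein-coding genes. In both condition-specific lists stood 6 of the 8, against 20% of protein-coding genes. Only Dlg4, Dlgap1 and Dlgap4 were named by a common region, 3 of 8 against 23.9%. These backgrounds count every protein-coding gene, whose median span is 17.2 kb, and the median span of the 8 genes is 180 kb. Among genes of 500 kb or more, 94.7% held a vehicle region and 94.7% a BIBR1532 region inside their span, and the class of 200 to 500 kb had 86.5% and 79.4%. From 50 to 200 kb, which takes in Dlg3, Dlgap3 and Dlgap4, the shares were 56.6% and 50.5%, and under 50 kb 17.0% and 15.5%.

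Long genes held more regions in general. The median number of condition-specific regions inside a span was 0 under 50 kb, 1 from 50 to 200 kb, 4 from 200 to 500 kb and 9 above that. Dlg2 spans 1973 kb and was the 7th longest of the protein-coding genes. Inside its span lay 36 condition-specific regions, a number reached by 2 of 226 genes of 500 kb or more, Dlg2 included. Per 100 kb this was 1.82 regions, close to the 1.88 of all protein-coding spans pooled and above the 1.21 of spans of 500 kb or more. Dlgap1 (852 kb) held 20, which 27 of the 226 reached. Dlgap2 is nearly as long (758 kb) but held 9, the median of that length class, and its density of 1.19 per 100 kb was the lowest of the 8. At the other end, Dlg4 held 4 regions in 28.3 kb, a density of 14.1 per 100 kb. These stood as pairs with 106 bp between the 2 regions of a pair, so they are not 4 separate places. Of 16939 genes under 50 kb, 78 (0.460%) held at least 4, a minimum set from Dlg4 itself and counted without merging close regions. Dlgap4 (151 kb) had 5.97 and Dlgap3 (68.7 kb) 5.82 per 100 kb, and Dlg1 (210 kb), Dlg3 (51.0 kb) and Dlgap1 lay at 1.91, 1.96 and 2.35.

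**Figure D2:**
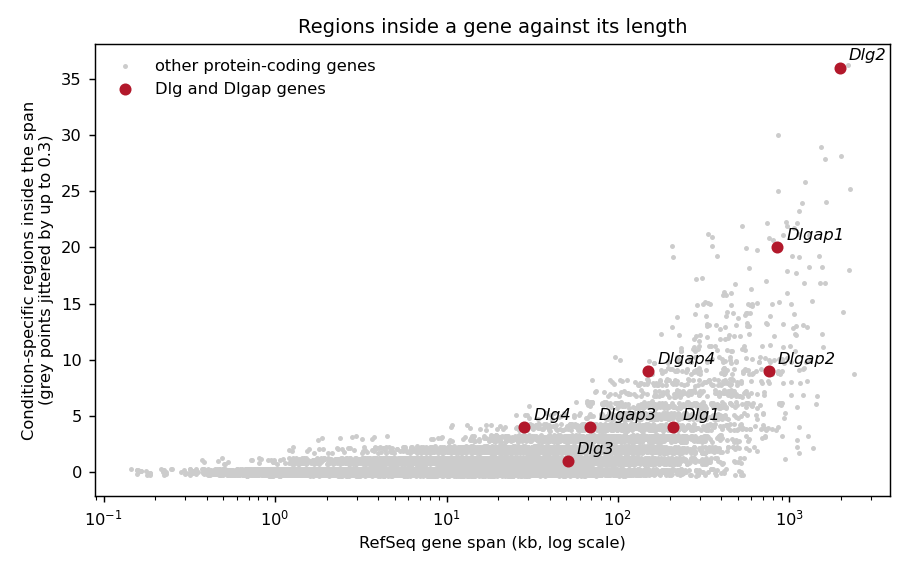
Condition-specific regions whose centre lies inside the RefSeq span (y axis) against the length of the span in kb (x axis, log scale) for all 21883 protein-coding genes, with the 8 genes in red. Dlg2 stands at 36 regions, Dlgap1 at 20 and Dlgap2, nearly as long as Dlgap1, at 9.

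The regions lay mainly in introns. Introns took 51 of the 72 condition-specific regions (70.8%), against 43.9% of all condition-specific regions, and intergenic sequence 13 (18.1% against 38.6%). Most of the intronic ones came from the 2 genes with the most regions, Dlg2 (11 BIBR1532 and 11 vehicle) and Dlgap1 (7 and 9). Promoters took 4 (5.56% against 10.2%) and 5' UTRs 3 (4.17% against 1.18%). No member region was annotated in a coding exon, a 3' UTR or at a termination site. These classes were rare in general, with 2.30%, 1.73% and 1.53% of all condition-specific regions. Of the BIBR1532 regions 18 of 33 lay more than 100 kb from the nearest start site (54.5% against 21.0% of the whole list), and of the vehicle regions 18 of 39 (46.2% against 22.0%). Dlg2 supplied 12 and 13 of these, Dlgap1 4 and 5, and Dlgap2 2 and 0.

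The start sites are described first, by gene. Dlg4 encodes PSD-95, and its regions lay in 2 small groups that each held shared and vehicle signal. At the upstream group, a common region at chr11:70021225-70021905 (score 0.278, in a CpG island in intron 1 of 19) lay 172 bp from a vehicle region at chr11:70020920-70021052 (score 1.65). A further vehicle region stood at chr11:70020300-70020813 (score 2.58). At the downstream group, a common promoter region at chr11:70029229-70029636 (score 0.0562) lay 51 bp from a vehicle promoter region at chr11:70029688-70029876 (score 3.11). The next vehicle region, at chr11:70029983-70030207 (score 1.94), was in intron 1 of 18 of that transcript. The scores are the authors' own and rank regions only within a list. As MACS2 computes it, a low score in the common list goes with pools that are alike, so it is no sign of a weak site.

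All 4 vehicle regions of Dlg4 thus lay within 500 bp of a common region, a distance chosen after the values were seen. Of all vehicle regions 6.87% did so, and of the 39 vehicle regions of the 8 genes 4 (10.3%), those of Dlg4. Of all BIBR1532 regions 7.53% did so, and of the 33 of the 8 genes 0. All 4 Dlg4 vehicle regions scored below 5.19, the most frequent score of the vehicle list, as did 12.9% of that list. The nearest BIBR1532 region was 72590 bp away or more. Of genes under 50 kb, 7 of 16939 held at least 4 vehicle and 0 BIBR1532 regions, a pattern set from Dlg4 itself. Its 4 vehicle regions stood as pairs, with 106 bp between the 2 regions of a pair. Merged within 1 kb, BIBR1532 minus vehicle regions of Dlg4 was -2 in place of -4. It was -2 at a score minimum of 2 and -1 at 3.

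Dlgap3 encodes SAPAP3, a scaffold abundant in striatal synapses, and its start site showed the opposite list. BIBR1532 promoter regions lay at chr4:127168343-127168547 (score 1.29) and chr4:127168609-127169131 (score 1.96), 759 and 334 bp upstream of the annotated start site by their centres and 61 bp apart. The RefSeq span of the gene starts earlier, and both centres lay inside it, 0.14 and 0.565 kb from its start. A further BIBR1532 region in intron 1 of 11 at chr4:127171691-127171947 scored 6.92. The nearest vehicle region was 34.1 kb from them and the nearest common region farther still. The lone vehicle region of the gene lay in intron 5 of 11, at chr4:127206028-127206170 (score 5.19). A score of 1.29 was shared by 494 BIBR1532 regions, 3.06% of the list, and 4 of the 33 member regions had it. Both promoter regions scored below 2, so neither was left at score minimums of 2 and 3. BIBR1532 minus vehicle regions of Dlgap3 then went from 2 to 0.

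Dlgap1 encodes GKAP, also called SAPAP1. Its BIBR1532 promoter region at chr17:69968187-69968454 lay 753 bp upstream of the start site at the score of 6.34, which 46.8% of the BIBR1532 list shared. With the Dlgap3 regions this made 2 of 8 genes with a BIBR1532 promoter region, against 6.89% of protein-coding genes. The vehicle list had 1 of 8, Dlg4, against 7.37%, and the common list 2 of 8, Dlg4 and Dlgap4, against 14.2%. Counts of 1 and 2 genes are too few to be read against these shares.

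Dlgap4, which encodes SAPAP4, had a common promoter region at chr2:156721052-156721267, with a score of 0.0160 among the lowest of the common list. The region was named for Dlgap4, but the transcript given with its promoter class was a non-coding one. Its other common region lay in intron 2 of 11 at chr2:156666035-156666390 (score 0.108). A BIBR1532 region at chr2:156656716-156656943 (score 8.92, on a simple repeat) and vehicle regions at chr2:156726380-156726521 (1.42) and chr2:156744543-156745006 (5.19, on a LINE element) were all intronic.

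For the 3 Dlg genes other than Dlg4, the regions nearest to start sites were mostly vehicle regions in first exons. Dlg2, which encodes PSD-93, had a vehicle region in the 5' UTR of exon 1 of 23 at chr7:91090864-91091034, centred 163 bp after the start. Dlg3, which encodes SAP102, had 1 region in all, a vehicle region in the 5' UTR of exon 1 of 19 at chrX:100767781-100767949, 143 bp after the start (score 6.57). Dlg1 encodes SAP97. It had a vehicle region in a 5' UTR at chr16:31754459-31754673, 216 bp after an internal start site, and another in exon 1 of 25 of a non-coding transcript at chr16:31664198-31664321, 324 bp after the upstream one. These Dlg1 and Dlg2 regions all had the most frequent vehicle score.

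How a promoter was defined changed the count for the vehicle list. A vehicle region centred within 1 kb of a start site stood at 4 genes (Dlg1, Dlg2, Dlg3 and Dlg4), against 11.6% of protein-coding genes, where the promoter class gave 1. BIBR1532 regions did so at 3 genes (Dlg1, Dlgap1 and Dlgap3) against 11.1%, and common regions at 2 (Dlg4 and Dlgap4) against 19.2%. Within 5 kb there were 5 genes with a vehicle region (against 16%), 3 with a BIBR1532 region (15.7%) and 2 with a common region (20.2%). Counted over regions, 15.4% of the vehicle regions of the 8 genes and 15.9% of the whole list lay within 1 kb of a start site. For the BIBR1532 list the shares were 12.1% and 17.6%. The gene added at 5 kb, Dlgap2, encodes SAPAP2, and its vehicle region lay in a CpG island at chr8:14096883-14097158, 1145 bp after the start. The nearest common region was 6166 bp away.

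**Figure D3:**
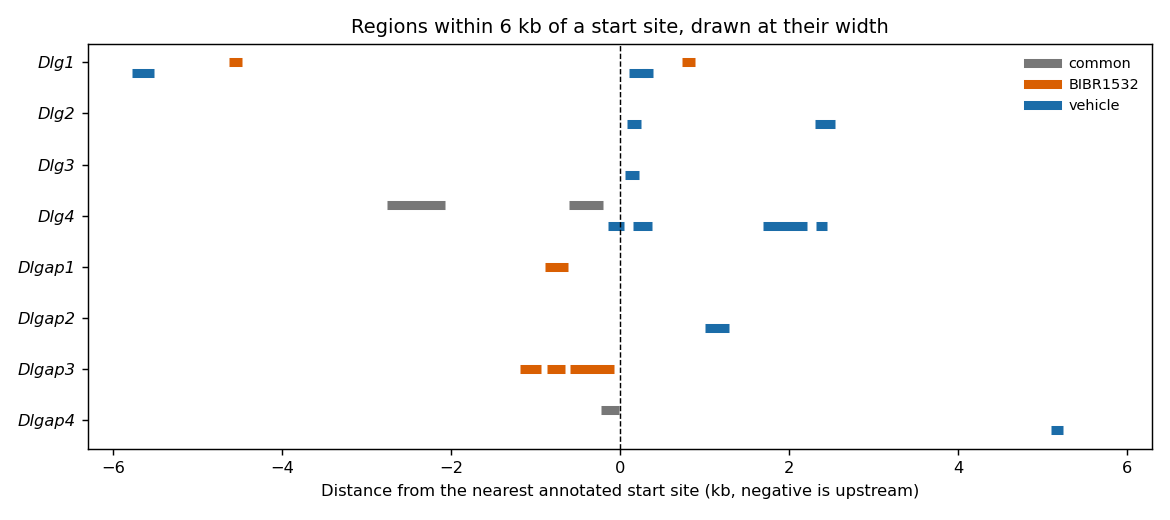
Regions whose centre lies within 6 kb of an annotated start site, drawn at their width in the common (grey), BIBR1532 (orange) and vehicle (blue) lists, one row per gene; the x axis is the distance from the nearest start site in kb. Regions near different start sites of one gene share a row, so bars of a gene that meet here can lie far apart on the chromosome. Vehicle bars sit just after the start in Dlg1, Dlg2 and Dlg3, and BIBR1532 bars before it in Dlgap1 and Dlgap3. The RefSeq span of Dlgap3 starts earlier, and its BIBR1532 bars lie inside that span.

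Promoter sequence was at hand for 7 of the 8 genes, in 16 windows of the RefSeq table (GRCm38.p6, the assembly of mm10). The 5 windows that lay within 500 bp of a member region are printed below as the 250 bases before the start site, 5' to 3' on the plus strand, which is the strand of these genes. They show how unlike these start sites are in base composition. Capitals mark each CG dinucleotide.
Dlgap4, chr2:156720715-156720964: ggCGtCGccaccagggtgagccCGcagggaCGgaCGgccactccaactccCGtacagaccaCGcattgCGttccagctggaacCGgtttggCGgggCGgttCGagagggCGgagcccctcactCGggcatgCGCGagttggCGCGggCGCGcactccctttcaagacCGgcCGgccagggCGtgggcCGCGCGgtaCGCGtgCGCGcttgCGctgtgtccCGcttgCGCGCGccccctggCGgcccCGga
Dlg1 upstream start, chr16:31663685-31663934: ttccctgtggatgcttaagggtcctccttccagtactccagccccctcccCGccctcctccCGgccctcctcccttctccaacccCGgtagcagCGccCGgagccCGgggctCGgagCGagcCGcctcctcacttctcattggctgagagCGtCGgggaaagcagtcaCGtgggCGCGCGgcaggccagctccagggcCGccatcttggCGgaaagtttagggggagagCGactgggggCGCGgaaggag
Dlgap1, chr17:69968823-69969072: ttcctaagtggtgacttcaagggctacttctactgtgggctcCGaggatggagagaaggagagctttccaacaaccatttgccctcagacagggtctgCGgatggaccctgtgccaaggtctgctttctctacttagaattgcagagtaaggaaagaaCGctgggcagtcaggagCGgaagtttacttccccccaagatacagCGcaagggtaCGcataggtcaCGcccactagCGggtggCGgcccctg
Dlg2, chr7:91090536-91090785: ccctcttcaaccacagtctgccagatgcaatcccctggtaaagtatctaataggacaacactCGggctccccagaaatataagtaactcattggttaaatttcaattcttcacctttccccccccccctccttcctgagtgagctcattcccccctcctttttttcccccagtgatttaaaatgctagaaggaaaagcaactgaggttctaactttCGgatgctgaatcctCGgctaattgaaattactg
Dlg1 internal start, chr16:31754100-31754349: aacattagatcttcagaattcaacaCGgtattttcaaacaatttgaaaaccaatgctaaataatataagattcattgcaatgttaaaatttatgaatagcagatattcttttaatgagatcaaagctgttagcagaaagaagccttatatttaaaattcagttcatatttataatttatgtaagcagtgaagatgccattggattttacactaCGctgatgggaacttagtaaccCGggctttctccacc

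The Dlgap4 window, the one beside a common region, held 37 CG dinucleotides and 74.0% G and C, and 2.20% of 32851 windows held as many CG. Between the start site of this window and the common region lay 86 bp, whereas the authors' annotation took a later start and placed the region centre 120 bp before it. The Dlg1 upstream window, beside a vehicle region, held 20 CG, and the Dlgap1 window, beside a BIBR1532 region, 9. The Dlg2 and internal Dlg1 windows, also beside vehicle regions, held 3 each, and the median over all windows was 6. Between start site and vehicle region lay 77 bp in Dlg2, 262 bp at the upstream and 108 bp at the internal start of Dlg1. In no member window did a region reach into the printed bases.

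Motifs were searched on both strands in the 250 bases, and matches of different motifs were each counted where they overlapped. A GC box (GGGCGG) was found in 5 of the 16 member windows, in Dlg1, Dlg3, Dlg4 and Dlgap4, and in 32.7% of all windows. The telomere repeat letters TTAGGG stood in 3 of 16, in Dlg1, Dlg4 and Dlgap1, against 9.32%. An E-box (CACGTG) stood in 3 of 16 against 6.02%, a TATA box (TATAAA) in 2 of 16 against 12.4% and a CRE (TGACGTCA) in 0 of 16 against 1.55%. Among the printed windows, that of Dlgap4 held GC boxes, the upstream one of Dlg1 held a GC box, TTAGGG and CACGTG, and the internal one of Dlg1 held TATAAA. The printed Dlg2 and Dlgap1 windows held none of the 5. These are matches of letters and do not show a site in use.

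Within the long genes, regions were scattered with a few local groups. In Dlg2 the region of highest score was a BIBR1532 region at chr7:90885911-90886365 (455 bp, score 15.4, ranked 63 of 16153). BIBR1532 regions at chr7:90886564-90886690 and chr7:90887667-90887912, both at a score of 1.29, made a group of 3 within 2.00 kb with it. The group lay about 203 to 205 kb before the start site to which it was assigned and was annotated as intergenic. The nearest vehicle region was 13274 bp from it. The highest vehicle score in Dlg2 was 6.78, in intron 2 of 22 at chr7:91542748-91542972.

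The RefSeq span of Dlg2 starts at 90476188 on chromosome 7, far upstream of that start site. All 8 regions of Dlg2 annotated as intergenic, 4 BIBR1532 and 4 vehicle, lay inside this span. The class of these regions therefore depended on the transcript models. The intergenic regions of Dlg1 (1 BIBR1532 and 1 vehicle) and Dlgap1 (2 and 1) lay outside their spans.

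Dlgap1 held a comparable group. Its highest region was a BIBR1532 region in intron 3 of 14, at chr17:70315216-70315449 (score 14.2, ranked 129), on a B3 SINE element. A second at chr17:70315767-70316049, again at 1.29, lay 317 bp away. The nearest vehicle region stood 5585 bp from it at chr17:70321635-70321838. The common region of Dlgap1, at chr17:70363434-70363603 (score 0.201), lay in the same intron. The highest vehicle score was 6.59, in intron 3 of 11 at chr17:70656233-70656685.

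The widest regions of both genes fell largely on LINE elements. In Dlg2 the vehicle region at chr7:91481415-91487186 covered 5772 bp and that at chr7:91408458-91410673 covered 2216 bp, both in introns and both named for L1 repeats. The widest BIBR1532 region of Dlg2, at chr7:91170192-91170928, covered 737 bp, also on an L1 repeat. In Dlgap1 the widest was a BIBR1532 region of 3333 bp at chr17:70054179-70057511, on an L1Md_T element, and the widest vehicle region covered 550 bp at chr17:70405706-70406255. All 5 of these regions had the modal (most frequent) score in their list. Over the 8 genes, LINE elements were named in 4 BIBR1532 (12.1% against 7.27% of the list) and 7 vehicle regions (17.9% against 7.41%). How reads that match several copies of a repeat were placed is not stated in the sources used here.

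A single score level held many of the regions in each condition-specific list. The modal score, the most frequent one in a list, was that of 19 of 33 BIBR1532 regions (57.6% against 46.8%) and 28 of 39 vehicle regions (71.8% against 50.2%). In Dlg2 these were 10 of 15 and 13 of 16, and in Dlgap1 7 of 10 and 9 of 10. Without them 14 BIBR1532 and 11 vehicle regions were left, a BIBR1532 share of 56% in place of 45.8%. Dlg2 then had 2 more BIBR1532 than vehicle regions and Dlg1 1 more, the opposite sign to the full counts.

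**Figure D4:**
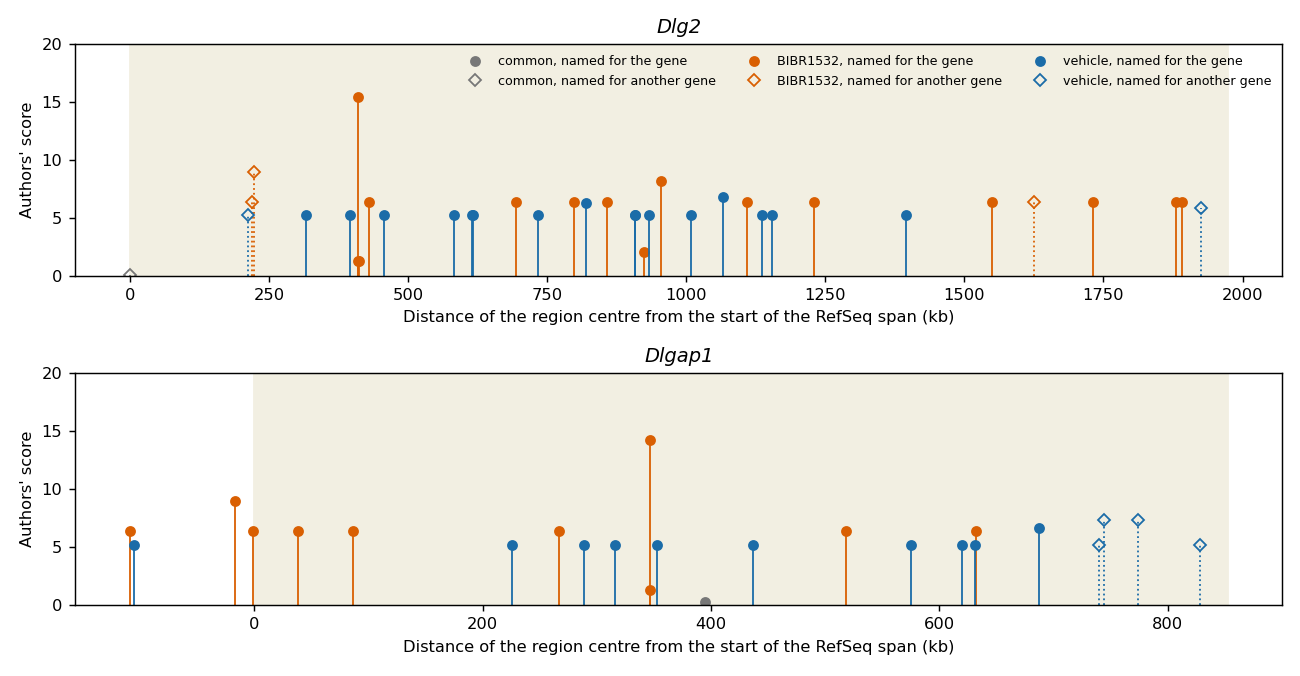
Authors' score (y axis) of each region along Dlg2 and Dlgap1, by the distance of its centre from the start of the RefSeq span in kb (x axis; shaded, the span). Filled circles are regions named for the gene and open diamonds regions inside the span named for a neighbour; scores rank regions within a list only. A group around 410 kb in Dlg2 and one around 346 kb in Dlgap1 hold the BIBR1532 regions of highest score, 15.4 and 14.2.

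Among the 33 BIBR1532 regions, 2 (6.06%) had a vehicle region at most 1 kb away, against 5.05% of all BIBR1532 regions. These were in intron 3 of 11 of Dlgap1, where chr17:70600744-70600898 (BIBR1532) lay 272 bp from chr17:70599980-70600471 (vehicle), and upstream of Dlg1, where chr16:31658817-31658966 (BIBR1532) lay 889 bp from chr16:31657660-31657927 (vehicle). All 4 had the most frequent score. Between regions named for the gene, the closest approach was 8.49 kb in Dlg2, 34.1 kb in Dlgap3, 69.4 kb in Dlgap4 and 271 kb in Dlgap2. With regions named for a neighbour but lying inside the span, it was 7150 bp in Dlg2, 962 bp in Dlgap4 and 17915 bp in Dlgap2. The highest region of Dlg1, a BIBR1532 region at chr16:31696285-31696433 (score 7.90), lay 811 bp after a start site. In Dlgap2 the BIBR1532 regions stood as a pair at chr8:14381569-14381772 (2.41) and chr8:14382720-14382852 (6.34) in intron 2 of 14, and the highest vehicle region at chr8:14109903-14110228 (5.89) in intron 1.

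The nearest-start-site rule left out regions that lie inside these genes. Inside the 8 spans were 22 regions named for another gene, 9 BIBR1532, 12 vehicle and 1 common. Dlgap1 gained 4 vehicle regions named for Tgif1, at 740 to 828 kb from its start, and lost 3 BIBR1532 and 1 vehicle region that lay before its span. Its counts went from 10 and 10 to 7 BIBR1532 and 13 vehicle. Dlgap2 gained 2 BIBR1532 and 3 vehicle regions named for Cln8 and stood at 4 and 5. Dlg2 reached 18 and 18, and the common promoter region of its neighbour Tmem126b, at chr7:90476387-90476752, lay 0.381 kb inside its span. Dlgap4 went from 1 and 2 to 4 and 5 through 6 regions named for the non-coding gene 4930405A21Rik.

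One pair of these regions in Dlgap4 held the highest vehicle and the highest BIBR1532 score among the regions named for another gene. A vehicle region at chr2:156718631-156718919 scored 11.9 (ranked 127 of 18562). A BIBR1532 region at chr2:156717232-156717668 scored 9.38 (ranked 1060 of 16153), with 962 bp between them. Both were intronic, and the vehicle region lay 2132 bp before the common promoter region of Dlgap4. The centre of the vehicle region lay 2134 bp from the start site of 4930405A21Rik, so that start also stood beside the common region. The pair was picked out after its values were seen.

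Along the long spans the lists were not evenly mixed, a description made after the values were seen and on few regions. Over 4 equal stretches of the Dlg2 span, from start to end (493 kb each), there were 6, 5, 2 and 5 BIBR1532 and 4, 8, 5 and 1 vehicle regions. Over those of the Dlgap1 span (213 kb each), there were 2, 3, 2 and 0 BIBR1532 and 0, 4, 4 and 5 vehicle regions. The last stretch thus held more BIBR1532 regions in Dlg2 and only vehicle regions in Dlgap1. These orders were not tested.

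The partners of the scaffolds were taken from a fixed list of 60 genes: receptors, adhesion molecules, other scaffolds, and enzymes that act on the Dlg and Dlgap proteins. BIBR1532 regions named 40 of the 60 (66.7%, against 34.5% of protein-coding genes). Vehicle regions named 41 (68.3% against 37.4%) and common regions 17 (28.3% against 23.9%), and 7 were in no list. The median number of condition-specific regions was 2 per partner, against 4 for the 8 genes and 1 over all protein-coding genes. The median span of the partners was 86.5 kb, and they were not compared with genes of like length. Of their 233 condition-specific regions 116 were BIBR1532 (49.8%, exact 95% interval 43.2 to 56.4). The share over all condition-specific regions, 46.5%, was inside that interval.

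The partners with the most regions split in different ways. Magi1, a scaffold of the same superfamily, had 11 BIBR1532 and 11 vehicle regions, the AMPA receptor gene Gria1 8 and 7, and the neuregulin receptor gene Erbb4 7 and 7. Sipa1l1, whose product SPAR binds PSD-95, had 4 and 9, with 4 common regions. Magi2, which had as many condition-specific regions as Sipa1l1 but 0 common ones, had 8 and 5. Common promoter regions stood at 9 of the 60 (15%, against 14.2% of protein-coding genes): Sipa1l1, the kinase gene Fyn, the motor gene Kif1b, Magi3, Cacng4, the depalmitoylase gene Abhd17a, Baiap2, Cask and the palmitoyltransferase gene Zdhhc5. BIBR1532 promoter regions stood at 7 of the 60 (11.7% against 6.89%) and vehicle promoter regions at 8 (13.3% against 7.37%). These differences from the background were not tested. Of the family relatives outside the 8 genes, Dlg5 had 1 BIBR1532, 4 vehicle and 1 common region, and Dlgap5, which encodes a mitotic spindle protein, had 0 in every list.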

How the data were processed

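Per the submitters' processing notes, CASAVA 1.8, Bowtie2, Picard and MACS2 2.1.2 were used with mm10, with no role given for each. Per the file headers, regions were annotated with annotatePeaks.pl, which names the gene with the nearest start site. A comparison step of MACS2 (bdgdiff, threshold 1) was read from the file names. The deposited values are the authors' score of each region, and the scaling of the pools is not stated in the sources used here.

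Both condition-specific lists were decoded from UTF-7, and 64 of 41591 regions, on contigs other than chromosomes 1 to 19, X and Y, were left out. Width was end minus start plus 1. Regions were counted by gene name, and alternatively by their centre inside the RefSeq span (GRCm38.p6), where all 8 genes matched by symbol. Protein-coding genes were matched by gene ID. Shares carry exact (Clopper-Pearson) 95% intervals. Counting was tested on simulated regions.

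Named were all 8 genes; their promoter, UTR, exon and common regions; each gene's highest-scoring and widest condition-specific region per list; and, of 60 partners, the 4 with most condition-specific regions, those with a common promoter region, Dlg5 and Dlgap5. Other items named were chosen after their values were seen. Members and lists were chosen with earlier results of these data known. Alternatives were score minimums of 2 and 3, dropping the most frequent score, a width of at least 500 bp, merging within 1 kb, a 10 kb limit, base pairs covered, leaving out Dlg2, and start-site windows of 1 and 5 kb. Tools were matplotlib 3.10.9, scipy 1.17.1, numpy 2.4.6, pandas 2.3.3 and Python 3.11.15.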

Additional observations from a re-analysis of the deposited data

How the results depend on the processing

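Each condition is 1 pool, so no result could be recomputed without a library. No paired analysis was possible because the deposited lists hold no values per sample. The counts of regions depended on what was kept. Without the most frequent score of each list the 8 genes had 14 BIBR1532 and 11 vehicle regions, and the partner list 54 and 58. With a width of at least 500 bp the 8 genes had 1 common, 6 BIBR1532 and 5 vehicle regions, and the partners 3, 16 and 13. Within 10 kb of a start site the 8 genes had 3 common, 6 BIBR1532 and 12 vehicle regions, so that 33.3% (interval 13.3 to 59.0) in place of 45.8% were BIBR1532 regions. The partners had 34 BIBR1532 and 27 vehicle regions, 55.7%, and all regions 49.3%. These settings use fewer regions by construction. The share of the 8 genes ranged from 42.6% to 56% in the other settings run, inside its counting interval, and was 43.9% without Dlg2. Genes with a vehicle promoter region were 1, but 4 within 1 kb and 5 within 5 kb of a start site (11.6% and 16% of protein-coding genes). Those with a BIBR1532 promoter region were 2, then 3 and 3 (11.1% and 15.7%). For single genes, the sign of BIBR1532 minus vehicle regions turned in 3 cases: Dlg1 (from -1 to 1) and Dlg2 (from -1 to 2) without the most frequent score, and Dlg2 (to 1) among regions of at least 500 bp. Dlgap1, at 0, moved to -6 inside its span and to 2 without the most frequent score. Dlg4, at -4, came to -2 when merged within 1 kb and at a score minimum of 2, and to -1 at 3. Dlgap3, at 2, came to 0 at both score minimums. The score minimums leave no common region and gave no count for that list. Covered length was run for the shares and single genes only.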
